A study of Mus musculus with 32 samples.

Results

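The cytosolic ribosomal protein genes encode the proteins of the ribosome that translates nuclear messages, and they are described here in cells sorted from mouse gliomas treated with vehicle or with BLZ945. They were chosen by symbol: all rows that begin with Rpl or Rps and a digit, together with Rplp0, Rplp1, Rplp2 and Rpsa, without rows marked -ps and without the S6 kinases. The rule took 86 of the 23337 rows of the count table, 52 of the large subunit series and 34 of the small subunit series with Rpsa. Of these, 9 are paralogues or relatives of a ribosomal protein (Rpl3l, Rpl7l1, Rpl10l, Rpl22l1, Rpl36al, Rpl39l, Rps27l, Rps4y2 and Rps19bp1). Rps19bp1 encodes a protein that binds Rps19, and Rps4y2 is annotated as Rps4l, a transcribed processed pseudogene on chromosome 6.

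A cytosolic ribosome carries a copy of nearly every ribosomal protein, with the stalk proteins as the exception, so that a cell makes these proteins in balanced amounts. Their messages are abundant, and many begin with a terminal oligopyrimidine (TOP) tract, a run of C and T at the start of transcription through which mTOR and the RNA-binding protein Larp1 set translation. Most ribosomal protein genes of mammals also have many processed pseudogenes, copies of the message inserted elsewhere in the genome.

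RNA was sequenced in 32 libraries from 17 mice, from sorted tumour-associated macrophages (TAM) and tumour cells (TC). In all groups XFM mice had received DF-1 cells that carry PDGFB into the brain at 5 to 6 weeks of age, and the trial began at a tumour volume of 20 to 40 mm3. BLZ945 inhibits the macrophage receptor CSF-1R and was dosed each day, as was vehicle, until symptoms or an age of 26 weeks. The perfused tumours were taken apart with papain, and PDGFRA+ cells were sorted as TC and CD11b+ Gr-1- cells as TAM. The groups are TAM Rebound (n = 5, tumours that grew again under BLZ945), TAM Endpoint (n = 6, dormant tumours at the end of the BLZ945 trial), TAM Vehicle (n = 5), TC Rebound (n = 5), TC Endpoint (n = 6) and TC Vehicle (n = 5). The agent is given as BLZ945 for all libraries, vehicle mice included, so treatment was taken from the stage. XFM and the clones of the injected cells are not described further in the sources used here, and 15 of the 17 mice gave both populations.

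Library totals were 15352174 to 19561440 in TAM Rebound, 9543888 to 15789460 in TAM Endpoint, 25556830 to 30383148 in TAM Vehicle, 10501264 to 16460126 in TC Rebound, 4180176 to 14029216 in TC Endpoint and 13126801 to 22989777 in TC Vehicle counts. Every count in the 22 BLZ945 libraries is an even number, whereas 47.1 to 49.5% of the nonzero counts were even in the 10 Vehicle libraries, so in any comparison with Vehicle the treatment and this difference in counting cannot be told apart. In Rebound against Endpoint, and in TAM against TC within a stage, the libraries on both sides have the same kind of counts. The scale of the counts still enters those fits: with the BLZ945 counts halved, 4 genes of the set were called in TAM Rebound against Endpoint and 12 in TC Rebound against Endpoint, and 0 in the test of the difference between these. The 14 myeloid markers summed to 49963 to 78993 CPM, counts scaled to library size, in TAM Rebound, to 60945 to 66912 CPM in TAM Endpoint and to 82509 to 134787 CPM in TAM Vehicle, above both, and to 101 to 14141 CPM in the TC libraries. The 12 tumour and progenitor cell markers summed to 2235 to 7401 CPM in TC Rebound, to 306 to 2321 CPM in TC Endpoint and to 2284 to 7793 CPM in TC Vehicle, with a median of 492 CPM in TC Endpoint, so the markers of the labelled cell type were lowest there. The 10 T and NK cell markers, all detected, summed to 3845 to 5537 CPM in 4 TC Endpoint libraries (49823, 49825, 49830 and 49831) and to 3159 CPM in TC Rebound 49827, against 5.24 to 34.4 CPM in the other TC libraries. They also summed to 57.0 to 261 CPM in TAM Rebound 49041, 49059 and 49849, against 3.17 to 34.9 CPM in the other TAM libraries. The 10 ependymal and choroid plexus markers summed to 5147 to 183847 CPM in TC Endpoint, against 2.88 to 936 CPM in TC Rebound and 10.02 to 516 CPM in TC Vehicle. The 8 pericyte and fibroblast markers summed to 94.2 to 6608 CPM in TC Rebound, against 229 to 841 CPM in TC Endpoint and 11.3 to 135 CPM in TC Vehicle. They were lowest of TC Rebound in 49827 and highest in 49041, where the tumour and progenitor cell markers summed to 5341 CPM. The part of these cells in the results below was not tested beyond the values given without those libraries. In sorted bulk samples, fewer cells of a type and less RNA per cell cannot be told apart.

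What a read of 50 bases can say about a ribosomal protein gene depends on how often its sequence recurs. Of the 85 genes with a coding sequence in GENCODE for GRCm38, 28 had every coding word of 50 bases in another annotated gene as well, 45 had at least 90% of them, and 4, among them Rpl3l, Rpl39l and Rps19bp1, had none. The words below are shown in lower case, since they can be read in this many other genes: Rpl29 in 32, Rpl3 in 16, Rpl15 in 15, Rpl30 in 13, Rpl34 in 9 and Rpl7l1 in 2. They are spliced coding sequence, given 5′ to 3′ in the sense of the gene.
Rpl29: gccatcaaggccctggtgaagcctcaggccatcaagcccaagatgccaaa
Rpl3: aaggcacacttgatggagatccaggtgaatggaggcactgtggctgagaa
Rpl15: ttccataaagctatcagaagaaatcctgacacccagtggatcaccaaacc
Rpl30: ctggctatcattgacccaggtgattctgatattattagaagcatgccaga
Rpl34: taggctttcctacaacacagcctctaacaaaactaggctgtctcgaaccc
Rpl7l1: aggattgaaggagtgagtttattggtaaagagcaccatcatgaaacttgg

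On GRCm38, Rpl29 lies on chromosome 9 at 106429454 to 106431568 on the plus strand, and Rpl3 on chromosome 15 at 80077791 to 80091868 on the minus strand. Rpl34 lies on chromosome 3 at 130726831 to 130730398 on the minus strand and Rpl15 on chromosome 14 at 18267823 to 18271391 on the minus strand. Rpl7l1 lies on chromosome 17 at 46773907 to 46782672 on the minus strand.

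The TOP tract was looked for in 30 bases around the RefSeq start of transcription (GRCm38.p6), which could be matched for 65 genes of the set. An unbroken run of at least 8 bases of C or T that touched the 5 bases on either side of the start was present in 21 of them (32.3%). In the RefSeq promoter table it was present in 2512 of 27025 genes (9.30%). Both counts take in runs that end before the start or begin after it, which are not TOP tracts by position. The runs of some genes that are described below are in capitals here, on the strand of the gene. RefSeq places them at chr14:18270972-18271001 (minus, Rpl15), chr2:26910792-26910821 (plus, Rpl7a), chr7:4792950-4792979 (plus, Rpl28), chr3:28805493-28805522 (plus, Rpl22l1), chr9:66946071-66946100 (plus, Rps27l) and chr3:130730384-130730413 (minus, Rpl34). Rpl34 has no run of that length in its window and is shown in lower case. The start lies after the first 15 bases shown. The runs of Rpl15, Rpl7a and Rpl28 span it. The run of Rpl22l1 begins after the first base of the message, and the run of Rps27l ends before the start, outside the annotated message.
Rpl15: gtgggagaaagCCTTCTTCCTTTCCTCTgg
Rpl7a: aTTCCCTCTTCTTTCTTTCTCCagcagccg
Rpl28: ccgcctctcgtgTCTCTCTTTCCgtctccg
Rpl22l1: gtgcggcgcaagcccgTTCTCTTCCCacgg
Rps27l: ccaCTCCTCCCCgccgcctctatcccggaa
Rpl34: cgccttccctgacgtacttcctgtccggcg

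The set took between 0.902 and 3.24% of the counts of a library. TAM Rebound libraries stood at 1.02 to 1.08% (median 1.05%), TAM Endpoint at 1.26 to 1.71% (median 1.48%) and TAM Vehicle at 0.902 to 1.44% (median 1.201%). TC Rebound stood at 1.07 to 2.299% (median 1.40%), TC Endpoint at 0.993 to 2.48% (median 2.07%) and TC Vehicle at 1.29 to 3.24% (median 2.40%). All TAM Endpoint libraries lay above all TAM Rebound libraries, while the other groups of the same population overlapped. The share was higher in the TC than in the TAM library in 13 of the 15 mice with both. Rn45s, the ribosomal RNA precursor, took 0.391 to 16.9% of the counts of a library. Vehicle mice 57098 and 57682 had 1.71 and 0.391% in TAM and 2.07 and 0.875% in TC, against 6.83 to 11.1% in the other Vehicle libraries. The same libraries had the lowest Vehicle shares of the ribosomal protein genes, 0.961 and 0.902% in TAM and 1.91 and 1.29% in TC, and the part of Rn45s in these was not tested. The highest TC Rebound share of the set, 2.299%, was that of 49827, the library with T and NK cell markers. It also had the highest myeloid (3260 CPM), myelinating oligodendrocyte (15163 CPM) and astrocyte (6287 CPM) marker sums and the lowest tumour cell marker sum (2235 CPM) of TC Rebound.

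**Figure D1:**
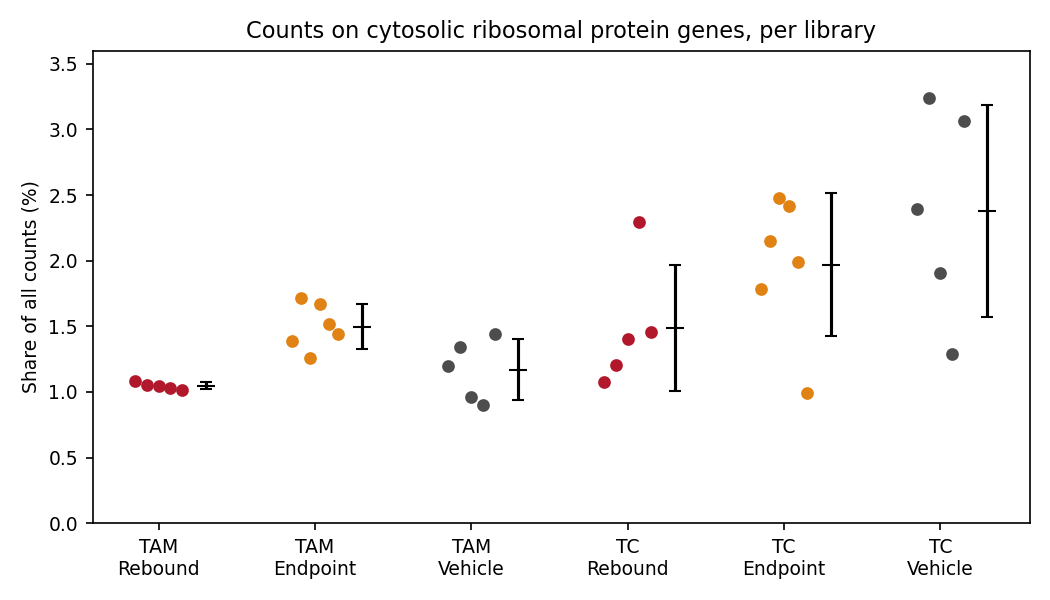
Share of all counts, in percent, that fell on the 86 cytosolic ribosomal protein genes in each of the 32 libraries (points), with the mean and SD of each group beside them. The 5 TAM Rebound libraries lie between 1.02 and 1.08%, and 1 TC Rebound library lies at 2.299%, above the other 4.

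Within the set, the 6 genes with the most counts, Rpl4, Rps3, Rps9, Rplp0 and Rpl8 among them, took 35.4 to 44.0% of its counts in every library. Per coding kilobase, the mean level over the 32 libraries was 8448 CPM per kb for Rpl41, which has a coding sequence of 78 bases, 1854 for Rpl32, 1734 for Rps9 and 1700 for Rps3. At the low end stood Rpl17 with 6.14, Rpl39l with 5.50, Rpl26 with 4.70, Rpl30 with 3.52, Rpl3l with 0.209 and Rpl10l with 0.0759 CPM per kb. Rpl26 and Rpl30 are parts of every ribosome, and yet Rpl30 had 705 counts over all 32 libraries together, against 319966 for Rpl41. The tissue-restricted paralogues Rpl3l, known from muscle, and Rpl10l, known from testis, had 139 and 11 counts and were not tested.

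Genes with less shared sequence had the higher median level. The median was 51.0 CPM per coding kb in the 28 genes whose coding words all recur elsewhere, 251 in the 41 genes with 50 to under 100% of words shared, and 447 in the 16 genes with under 50% shared. Across the 85 genes Spearman's rho was −0.44 and Pearson's r on log2 levels was −0.07, with the low Rpl3l and Rpl10l among the genes with little shared sequence. These are descriptions across genes that share libraries and family, and whether the reads of low genes were assigned to copies or left out was not tested. Levels are compared below between samples and not between genes.

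**Figure D2:**
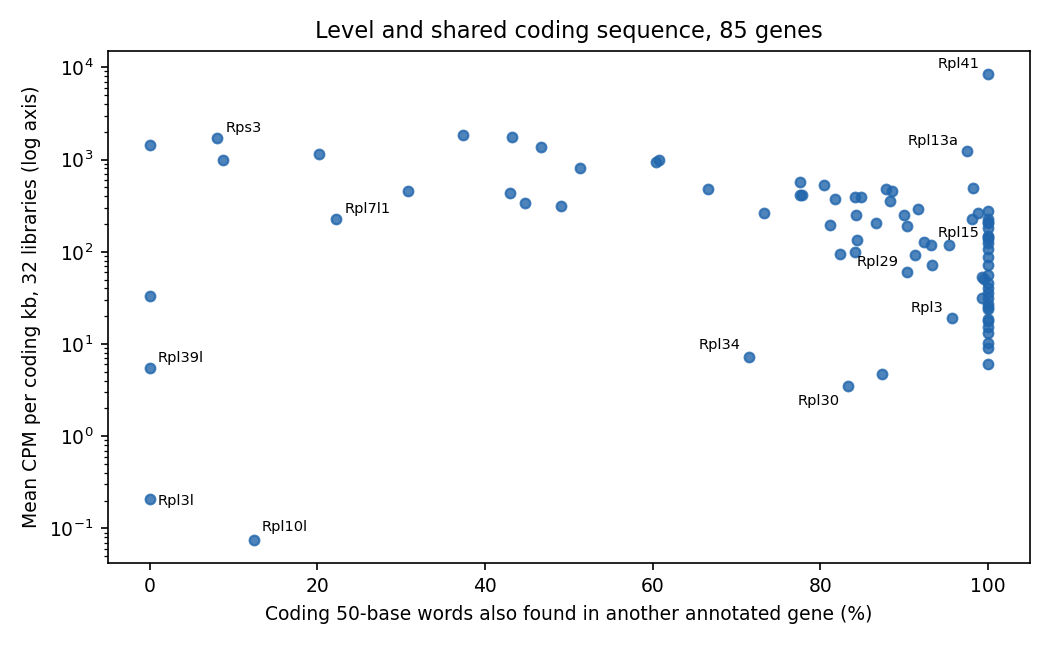
Mean level of 85 ribosomal protein genes over the 32 libraries, in CPM per coding kilobase on a log axis, against the percent of coding words of 50 bases that another annotated gene also holds. Genes at 100% run from 6.14 to 8448 CPM per kb, with a median of 51.0.

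In TAM of Endpoint tumours against TAM of Vehicle tumours, 6 genes of the set changed. Of 84 genes tested, 1 rose (Rpl22l1) and 5 fell (Rpl29, Rpl34, Rpl27, Rpl7l1 and Rps27l) by edgeR's quasi-likelihood test with Benjamini-Hochberg adjustment, against 33% of all 13315 genes called in either direction, 13.7% higher and 19.3% lower. The median log2 fold change of the set was −0.01, beside −0.03 over all genes. With library totals alone for scaling, which shifts the median of all genes to 0.39, 35 rose and 2 fell. Groups without overlap were seen for 3 genes of the set, against 20.5% of all genes. The 8 neuron markers summed to 21.0 to 42.9 CPM in TAM Endpoint and 6.83 to 13.7 CPM in TAM Vehicle, and the 8 markers of myelinating oligodendrocytes to 773 to 2243 CPM in TAM Endpoint and 464 to 978 CPM in TAM Vehicle. The part of these and of the lower myeloid sums in the result was not tested.

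Rpl7l1, a relative of Rpl7 found in the nucleolus, ran at 129 CPM (lowest), 139 CPM (median) and 163 CPM (highest) in the 6 TAM Endpoint libraries. The 5 TAM Vehicle libraries had 238, 239, 273, 304 and 249 CPM. All Endpoint macrophages lay below all Vehicle macrophages, with a log2 fold change of −0.75 (SE 0.13, edgeR adjusted p = 0.000347). Rpl27, a large subunit protein, averaged 5.99 CPM in TAM Endpoint and 12.5 CPM in TAM Vehicle (log2 −0.95, SE 0.35, edgeR adjusted p = 0.0415). Rps27l, a paralogue of Rps27 and a known target of p53, averaged 55.0 CPM in TAM Endpoint and 88.7 CPM in TAM Vehicle (log2 −0.57, SE 0.21, edgeR adjusted p = 0.0438). Their groups overlapped. Rpl22l1, the paralogue of Rpl22, was the gene that rose, with 51.9 CPM in TAM Endpoint against 37.6 CPM in TAM Vehicle (log2 0.59, SE 0.20, edgeR adjusted p = 0.0330), again with overlap. With the mouse as a block in limma-voom the calls of Rpl27 (adjusted p = 0.0785), Rps27l (adjusted p = 0.0889) and Rpl22l1 (adjusted p = 0.170) were lost. For stages this fit held all 32 libraries, TAM and TC, so it differs from the main test in program and libraries as well as in the block.

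Rpl34, a large subunit protein, ran at 0.386 CPM (lowest), 0.829 CPM (median) and 2.52 CPM (highest) in TAM Endpoint, against 4.04, 7.38, 3.65, 2.45 and 7.64 CPM in TAM Vehicle. The groups overlapped only through 1 Endpoint library above the lowest Vehicle library, and the log2 fold change was −2.05 (SE 0.55, edgeR adjusted p = 0.00802). Its annotated copy Rpl34-ps1 had more counts than Rpl34 itself, with 16.7 ± 2.97 CPM in TAM Endpoint (SD, n = 6) and 16.8 ± 6.28 CPM in TAM Vehicle (SD, n = 5).

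In TAM of Rebound tumours against TAM of Vehicle tumours, 4 of 84 genes fell (Rpl34, Rps4y2, Rpl7l1 and Rps15) and 0 rose, against 14.7% of all genes called in either direction and 7.73% called lower. The log2 fold changes leaned below 0, with 73 of 84 negative and a median of −0.32 beside 0.02 over all genes. The groups did not overlap for 8 genes of the set, against 10.3% of all genes. Without TAM Vehicle 57682 the number called was 16, and without TAM Vehicle 57098 it was 12. It was 2 without any one of TAM Rebound 49041, TAM Rebound 49827, TAM Vehicle 54359, TAM Vehicle 54363 and TAM Vehicle 64247, and 1 without the 3 TAM Rebound libraries that held T and NK cell markers.

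Rps4y2, the Rps4-related pseudogene, had 24.8, 23.6, 22.5, 24.6 and 20.9 CPM in TAM Rebound, against 50.1, 59.9, 41.0, 31.8 and 69.8 CPM in TAM Vehicle. The Rebound libraries were close together and all lay below the Vehicle libraries (log2 −1.04, SE 0.21, edgeR adjusted p = 0.00423). Rpl7l1 had 130, 145, 126, 172 and 123 CPM in TAM Rebound, below each of the TAM Vehicle values given above (log2 −0.82, SE 0.14, edgeR adjusted p = 0.00145). Without the 3 TAM Rebound libraries with T and NK cell markers the adjusted p of Rpl7l1 was 0.0660. Rps15, a small subunit protein, had 120, 115, 120, 124 and 119 CPM in TAM Rebound, against 254, 219, 126, 135 and 269 CPM in TAM Vehicle (log2 −0.66, SE 0.20, edgeR adjusted p = 0.0316). The lowest Vehicle libraries, 57098 and 57682, came within reach of the Rebound libraries without overlap, and the call of Rps15 was lost with the mouse as a block (adjusted p = 0.0740). Rpl34 fell as well (log2 −1.82, SE 0.58, edgeR adjusted p = 0.0414), and its call was lost with the block (adjusted p = 0.0648).

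Between the BLZ945 stages in TAM, Rebound against Endpoint, 2 of 84 genes fell (Rpl37 and Rps24) and 1 rose (Rpl29), against 17.6% of all genes called, 5.9% lower and 11.7% higher. The median log2 fold change was −0.32, beside 0.02 over all genes, and 73 of 84 were below 0. Groups without overlap were seen for 10 genes, against 12.2% of all genes. With library totals alone for scaling 1 rose and 39 fell, with the median of all genes at −0.21. Rps24, a small subunit protein, had 113, 117, 133, 111 and 114 CPM in TAM Rebound, against 146 CPM (lowest), 168 CPM (median) and 216 CPM (highest) in TAM Endpoint. These groups did not overlap (log2 −0.60, SE 0.19, edgeR adjusted p = 0.0365). Rpl37, a large subunit protein, averaged 39.7 CPM in TAM Rebound and 59.4 CPM in TAM Endpoint (log2 −0.61, SE 0.20, edgeR adjusted p = 0.0408), with overlap. With the block no gene was called (Rps24 adjusted p = 0.256, Rpl37 adjusted p = 0.290), and 0 were called without TAM Endpoint 49825 or TAM Endpoint 49831. The 8 dendritic cell markers summed to 533 to 1071 CPM in TAM Rebound and 242 to 352 CPM in TAM Endpoint, and the 7 endothelial markers to 65.5 to 155 CPM in TAM Rebound and 10.7 to 26.8 CPM in TAM Endpoint. Their part in the result was not tested.

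In the TC sort, Endpoint against Vehicle, 12 of 83 genes fell and 0 rose, against 28.7% of all 14985 genes called in either direction, 14.8% lower. The 12 were Rpl29, Rpl34, Rpl30, Rpl28, Rpl27, Rpl12, Rpl3, Rpl7l1, Rps27l, Rps19bp1, Rpl7a and Rpl15. Of these, 10 belong to the large subunit series. The median log2 fold change of the set was −0.20, beside 0.03 over all genes, and the groups did not overlap for 4 genes, against 14.2% of all genes. Without the 5 TC libraries with T and NK cell markers, 4 of which are TC Endpoint libraries, 1 gene was called. Without any one of TC Endpoint 49823, 49825 and 49831 or TC Vehicle 64247 the number was 6, and without TC Endpoint 49830 or TC Vehicle 54363 it was 7. The 8 markers of myelinating oligodendrocytes summed to 18610 to 29033 CPM in TC Endpoint and 2683 to 15394 CPM in TC Vehicle. Choroid plexus and pericyte markers, given above, were also higher in TC Endpoint, and the tumour cell markers had the lower median there. The part of any of these cells in the result was not tested.

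Rpl7l1 ran at 91.4 CPM (lowest), 104 CPM (median) and 126 CPM (highest) in TC Endpoint, against 258, 233, 258, 231 and 225 CPM in TC Vehicle. The groups were far apart (log2 −1.16, SE 0.19, edgeR adjusted p = 0.000952), and this call held under all alternatives that were run. Rpl28, a large subunit protein, ran at 6.12 CPM (lowest), 6.63 CPM (median) and 8.60 CPM (highest) in TC Endpoint, against 22.3, 19.0, 19.9, 15.6 and 23.6 CPM in TC Vehicle. It too was lower in each Endpoint than in each Vehicle library (log2 −1.51, SE 0.27, edgeR adjusted p = 0.00148). Rpl3, which reaches into the peptidyl transferase centre, ran at 5.82 CPM (lowest), 8.45 CPM (median) and 11.6 CPM (highest) in TC Endpoint, against 13.1, 12.7, 25.3, 21.5 and 24.0 CPM in TC Vehicle. The groups did not overlap, with a gap that was small beside the spread in Vehicle (log2 −1.18, SE 0.33, edgeR adjusted p = 0.0145).

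Rpl30, another protein of the large subunit with few counts, fell to 0.865 CPM in TC Endpoint, against 2.84 CPM in TC Vehicle on average (log2 −1.69, SE 0.60, edgeR adjusted p = 0.0446). Rpl12, which lies at the base of the stalk, averaged 6.09 CPM in TC Endpoint and 15.4 CPM in TC Vehicle (log2 −1.33, SE 0.45, edgeR adjusted p = 0.0361). Rpl27 averaged 7.11 CPM in TC Endpoint and 18.4 CPM in TC Vehicle (log2 −1.36, SE 0.37, edgeR adjusted p = 0.0131). The remaining genes had log2 fold changes between −1.03 for Rps27l and −0.64 for Rpl15, apart from Rpl34 at −2.14 and Rpl29 at −5.79. Rpl29 lost its call with the mouse as a block (adjusted p = 0.0884).

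Rpl7l1 was the one gene of the set for which every Vehicle library of either population lay above every BLZ945 library. The 22 BLZ945 libraries had 86.5 to 172 CPM and the 10 Vehicle libraries 225 to 304 CPM. Of all 15668 genes in the joint fit, 15 (0.0957%) separated in this direction and 1 (0.00638%) in the other. With library totals alone for scaling, the adjusted p of Rpl7l1 in TAM Endpoint against TAM Vehicle was 0.0849. The counting difference between BLZ945 and Vehicle libraries runs along the same line.

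**Figure D3:**
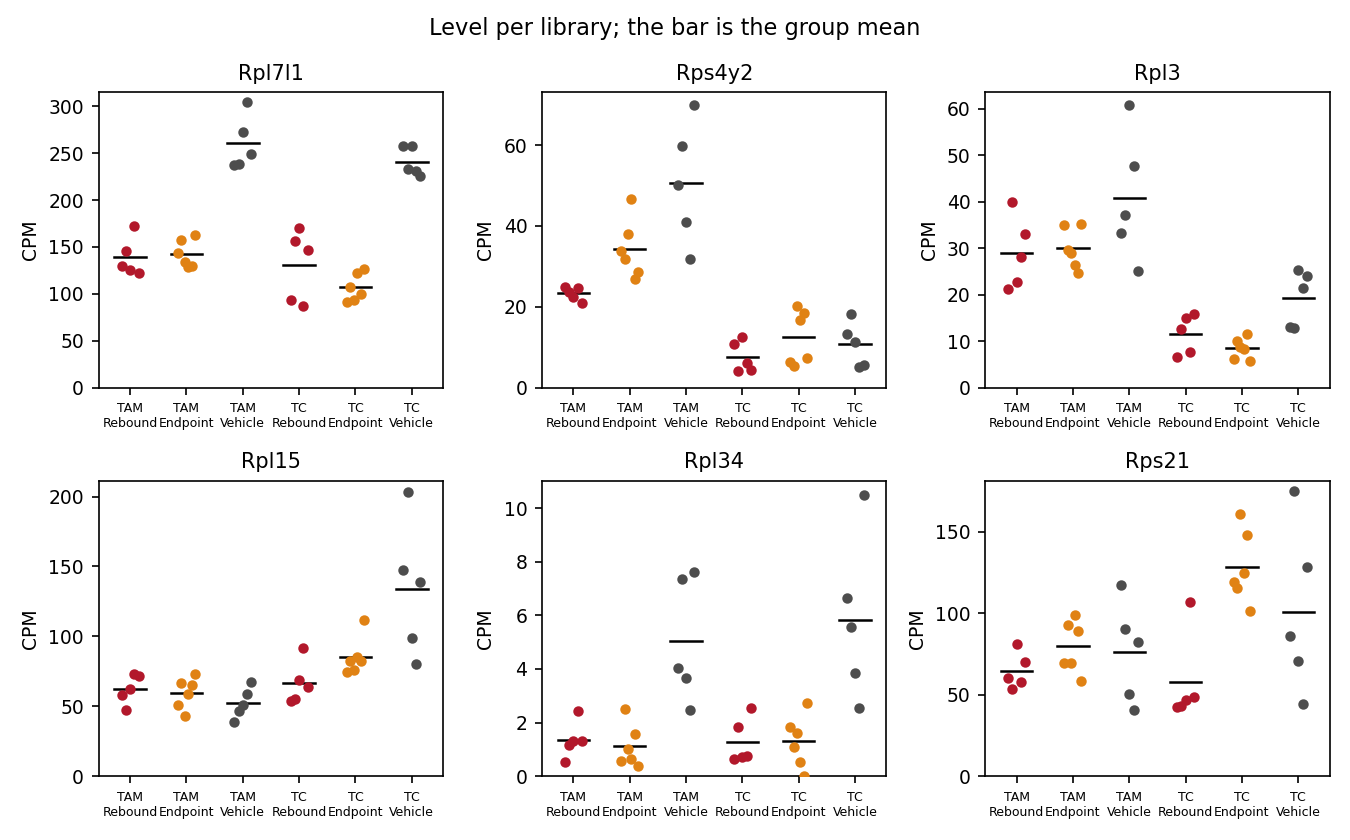
Level in CPM of 6 ribosomal protein genes in each library, by group, with the mean of each group. For Rpl7l1 the BLZ945 libraries of both populations lie at 86.5 to 172 CPM, below all Vehicle libraries at 225 to 304 CPM.

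In the TC sort, Rebound against Vehicle, no gene of the set passed: 0 of 83, against 0.0734% of all genes called, 0.0334% lower. All 83 log2 fold changes were nevertheless below 0, with a median of −0.81 beside 0.04 over all genes, and 64 genes had an unadjusted edgeR p under 0.05. The numbers called were 12 with DESeq2 and 0 with limma-voom, both on the TC libraries. The number was 36 with the mouse as a block in limma-voom of all 32 libraries, so that fit also differs in its libraries. Without TC Rebound 49827, the library with T and NK cell markers, 18 were called, all lower, with a median of −1.05. Over all genes 11 passed and 2243 had an unadjusted p under 0.05. The groups did not overlap for 5 genes, against 4.84% of all genes.

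Between the BLZ945 stages in the TC sort, Rebound against Endpoint, 10 of 83 genes fell (among them Rps21, Rpl37, Rps24, Rpl13a, Rplp1, Rps28, Rps19, Rpl41 and Rps14) and 0 rose, against 25.1% of all genes called, 11.5% lower. They were 5 genes of each subunit series. The median log2 fold change was −0.63, beside −0.04 over all genes, and 75 of 83 were below 0. The groups did not overlap for 1 gene, Rpl41, against 13.1% of all genes. With library totals alone for scaling, which moves the median of all genes to 0.28, 3 rose and 0 fell.

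Rps21, a small subunit protein, had 42.7, 43.0, 47.0, 107 and 48.7 CPM in TC Rebound, against 101 CPM (lowest), 122 CPM (median) and 161 CPM (highest) in TC Endpoint. A single Rebound library, 49827, reached the Endpoint values, and the log2 fold change was −1.13 (SE 0.33, edgeR adjusted p = 0.0206). Rpl13a, which in human monocytes also silences inflammatory messages, had 331, 375, 410, 1036 and 427 CPM in TC Rebound, against 673 CPM (lowest), 1139 CPM (median) and 1284 CPM (highest) in TC Endpoint. Again 49827 alone lay among the Endpoint libraries (log2 −1.02, SE 0.36, edgeR adjusted p = 0.0452). Rpl41, the shortest protein of the ribosome, had 370, 356, 374, 627 and 394 CPM in TC Rebound, against 651 CPM (lowest), 775 CPM (median) and 896 CPM (highest) in TC Endpoint. The groups were separate here, with 49827 nearest to Endpoint (log2 −0.85, SE 0.29, edgeR adjusted p = 0.0443). Rps19, the gene most often mutated in Diamond-Blackfan anaemia, averaged 154 CPM in TC Rebound and 281 CPM in TC Endpoint (log2 −0.85, SE 0.30, edgeR adjusted p = 0.0493).

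The count in this comparison turned on single libraries. Without TC Rebound 49827, 46 genes were called, 45 lower and 1 higher, with a median of −0.86. Without TC Endpoint 49845 the number was 17, and without TC Endpoint 49843 it was 5. It was 2 without TC Rebound 49041 or TC Endpoint 49825, 1 without TC Rebound 49059 or TC Endpoint 49823, 49830 or 49831, and 0 without TC Rebound 49692 or TC Rebound 49849. Without all 5 TC libraries with T and NK cell markers 1 was called, which leaves 4 TC Rebound and 2 TC Endpoint libraries. T and NK cell markers were high in 4 TC Endpoint libraries and in TC Rebound 49827. Pericyte and fibroblast markers, given above, were higher in TC Rebound than in TC Endpoint except in 49827. The tumour cell and choroid plexus markers given above moved with these groups. So did those of myelinating oligodendrocytes, at 857 to 15163 CPM in TC Rebound and 18610 to 29033 CPM in TC Endpoint. Myeloid markers summed to 101 to 3260 CPM in TC Rebound and 2569 to 14141 CPM in TC Endpoint, and the 6 erythroid markers to 3.58 to 38.1 CPM in TC Rebound and 101 to 806 CPM in TC Endpoint. Their part in the result was not tested.

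**Figure D4:**
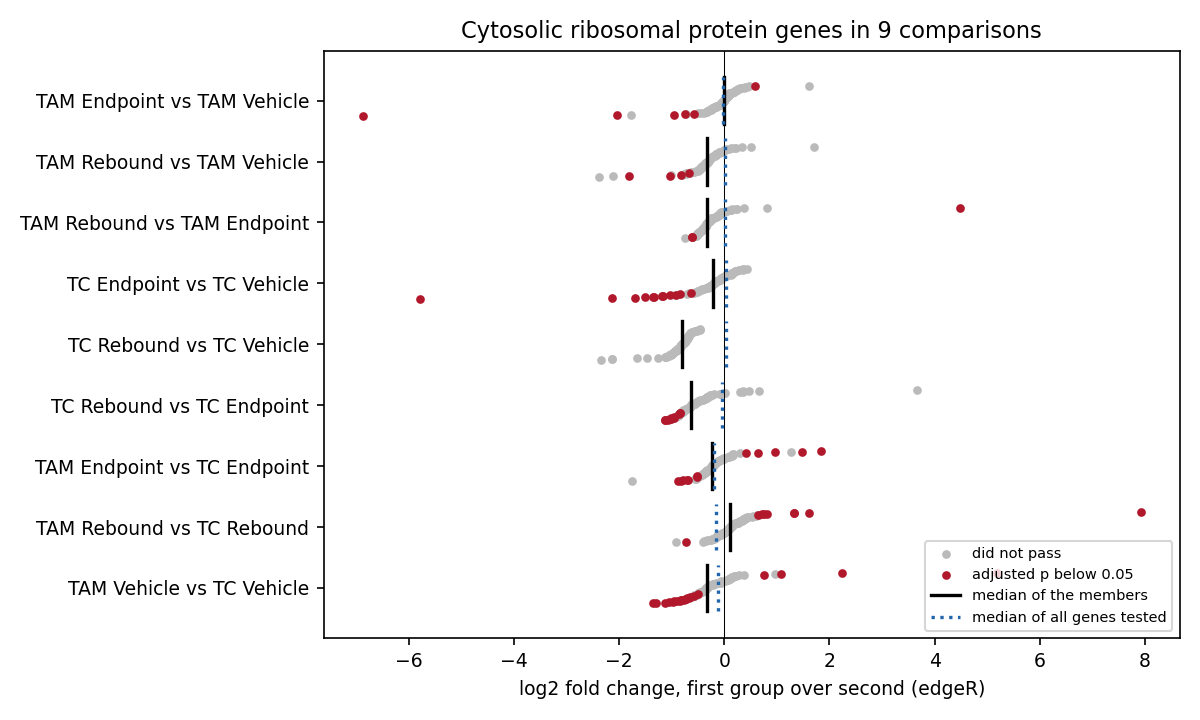
Log2 fold changes of the tested ribosomal protein genes in each comparison, 1 point a gene, with called genes marked and the median of the set beside the median of all genes. In TC Rebound against TC Vehicle all 83 points lie below 0 with a median of −0.81, and none passed the test.

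Rpl29, a basic protein of the large subunit that binds heparin, had the widest range, as a ratio of highest to lowest library, among the genes of the set that were counted in every library. It had 0.940, 1.01, 0.326, 0.151 and 51.9 CPM in TAM Rebound, 0.386 CPM (lowest), 0.469 CPM (median) and 0.594 CPM (highest) in TAM Endpoint, and 72.1, 65.1, 1.22, 87.2 and 81.2 CPM in TAM Vehicle. In the TC sort it had 0.313, 0.583, 48.0, 0.593 and 53.3 CPM in Rebound, 0.610 CPM (lowest), 0.967 CPM (median) and 3.87 CPM (highest) in Endpoint, and 103, 131, 0.983, 86.0 and 137 CPM in Vehicle. Each library was thus either low, at 0.151 to 3.87 CPM in 21 libraries, or high, at 48.0 to 137 CPM in 11 libraries.

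The level went with the mouse. In all 15 mice with both populations, the TAM and the TC library were on the same side: both high in Rebound 49849 and in Vehicle 54359, 54363, 57682 and 64247, and both low in the others, Vehicle 57098 among them. Rebound 49692, with a TC library only, was high. This pattern was looked at after the values were seen. Rpl29 fell in Endpoint against Vehicle (log2 −6.87 in TAM, SE 1.501, edgeR adjusted p = 0.00288), where all 6 Endpoint mice and 1 of 5 Vehicle mice were low, and the call was lost with the mouse as a block (adjusted p = 0.0931). It rose in TAM Rebound against TAM Endpoint (log2 4.49, SE 1.42, edgeR adjusted p = 0.0406) through 1 mouse: without TAM Rebound 49849 the log2 fold change was 0.31 (adjusted p = 0.862). Rpl29 shares 90.3% of its coding words with 84 other annotated genes, and the part of these copies was not tested.

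**Figure D5:**
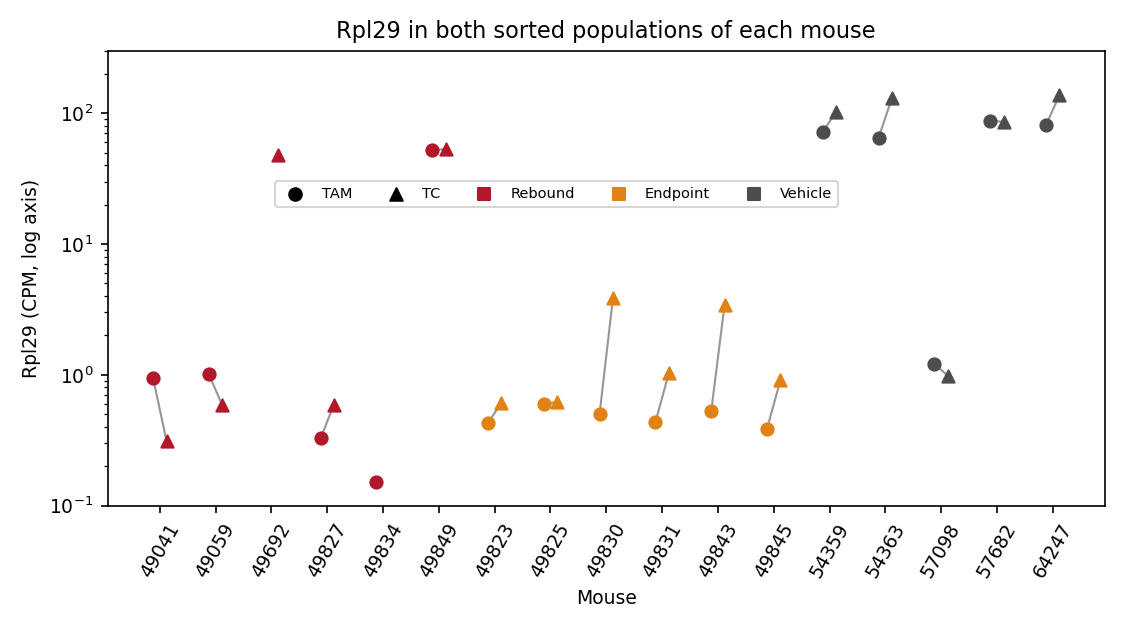
Level of Rpl29 in CPM on a log axis in the TAM and the TC library of each of the 17 mice, by stage. The 11 high libraries lie at 48.0 to 137 CPM and the 21 low libraries at 0.151 to 3.87 CPM, and no mouse has one of each.

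TAM were set against TC within each stage, in a fit of all 32 libraries. This fit has no term for the mouse, so the 2 libraries of the 15 mice with both populations are treated as independent. At Endpoint 5 of 84 genes were higher in TAM (Rpl3, Rps4y2, Rpl10, Rpl10a and Rpl7l1) and 7 lower (Rpl38, Rpl23a, Rpl31, Rpl13a, Rps21, Rpl15 and Rps15), against 51.1% of all 15668 genes called, 18.7% higher and 32.4% lower. At Rebound 8 were higher (Rpl39l, Rps4y2, Rpl10, Rpl3, Rps27a, Rps25, Rpl10a and Rpl36al) and 1 lower (Rpl28), against 47.8% of all genes, 20.4% higher and 27.4% lower. In Vehicle 4 were higher (Rpl39l, Rps4y2, Rpl3 and Rpl10) and 18 lower, against 54.8% of all genes, 25.6% higher and 29.2% lower. The median log2 difference of the set was −0.23 at Endpoint, 0.12 at Rebound and −0.34 in Vehicle, beside −0.19, −0.16 and −0.12 over all genes. Populations without overlap were seen for 10, 5 and 4 genes, against 29.1, 36.9 and 40.6% of all genes. With library totals alone for scaling, 3 were higher and 20 lower at Endpoint, 2 higher and 38 lower at Rebound, and 2 higher and 75 lower in Vehicle, with the median of all genes at −0.32, −0.88 and −1.003.

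Rpl3, Rps4y2 and Rpl10 were called higher in TAM in all 3 stages. Rpl3 averaged 30.03 CPM in TAM Endpoint and 8.43 CPM in TC Endpoint (log2 1.84, SE 0.26, edgeR adjusted p = 1.38e-06), with log2 differences of 1.33 at Rebound and 1.08 in Vehicle. Its lowest TAM Endpoint library, at 24.7 CPM, lay above its highest TC Endpoint library, at 11.6 CPM. Rps4y2 averaged 50.5 CPM in TAM Vehicle and 10.7 CPM in TC Vehicle (log2 2.25, SE 0.39, edgeR adjusted p = 1.53e-05), with 1.48 at Endpoint and 1.62 at Rebound, and the populations did not overlap in any stage. Rpl10, an X-linked protein that joins the large subunit late, averaged 16.7 CPM in TAM Rebound and 6.67 CPM in TC Rebound (log2 1.33, SE 0.32, edgeR adjusted p = 0.00109). In Vehicle its call was lost with the mouse as a block (adjusted p = 0.107), and with library totals alone its sign turned (log2 −0.09, adjusted p = 0.838). All coding words of Rpl10 recur in other genes.

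At Rebound the ubiquitin fusion gene Rps27a averaged 16.3 CPM in TAM and 9.28 CPM in TC (log2 0.82, SE 0.29, edgeR adjusted p = 0.0207). Its call was lost with the block (adjusted p = 0.0883), a fit that also leaves out TAM Rebound 49834 and TC Rebound 49692. Rps25, used by some viral internal ribosome entry sites, averaged 173 CPM in TAM Rebound and 103 CPM in TC Rebound (log2 0.76, SE 0.28, edgeR adjusted p = 0.0244). Rpl36al, the paralogue of Rpl36a, averaged 70.97 CPM in TAM Rebound and 45.3 CPM in TC Rebound (log2 0.65, SE 0.26, edgeR adjusted p = 0.0389), and Rpl10a averaged 33.8 CPM in TAM Rebound and 20.6 CPM in TC Rebound (log2 0.71, SE 0.24, edgeR adjusted p = 0.0166). The signs of Rpl36al (log2 −0.067) and Rpl10a (log2 −0.0026) turned at Rebound with library totals alone. The call of Rpl28, lower in TAM Rebound (log2 −0.72), was lost with the block (adjusted p = 0.0717), as was that of Rpl31 at Endpoint (log2 −0.78, adjusted p = 0.0583).

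Rpl39l, the paralogue of the exit tunnel protein Rpl39 known from male germ cells, had most of its counts in TAM. Its counts were 130 in TAM Rebound, 122 in TAM Endpoint, 57 in TAM Vehicle, 0 in TC Rebound, 30 in TC Endpoint and 1 in TC Vehicle. The groups differ in depth: pooled over libraries, TC Endpoint stood at 0.540 CPM, near TAM Vehicle at 0.597 CPM. TAM Endpoint stood at 1.61 CPM. With all libraries, the lower bound of TAM Rebound over TC Rebound was 61.5-fold, with counting error allowed for in TC Rebound only. It sets TC Rebound at a floor of 3 counts over the group, 0.0303 CPM. The pooled TAM Rebound level, 1.86 CPM, enters it without an error. The edgeR adjusted p of TAM Rebound against TC Rebound was 0.00182. Rpl39l passed the filter in the TAM and joint fits but not in the TC fit. Its calls in the joint fit are thus of a gene admitted through TAM, its higher population. TAM Rebound 49834 held 84 of the 130 counts, and without it the bound was 26.9-fold. All these counts are even, and with counts and totals halved the bound was 30.8-fold. The 5 TAM Rebound libraries had 0.134, 0.432, 0.326, 6.34 and 2.21 CPM, so the level differed widely between them. The 30 counts of TC Endpoint came from 2 of 6 libraries, 49825 and 49843. In Vehicle its call was lost with the mouse as a block (adjusted p = 0.0679). No coding word of Rpl39l recurs in another gene.

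Among the 18 genes lower in TAM Vehicle than in TC Vehicle, Rpl15, a large subunit protein, had 38.7, 46.3, 50.8, 58.5 and 67.1 CPM in TAM Vehicle, against 147, 203, 99.1, 79.9 and 139 CPM in TC Vehicle. The populations did not overlap (log2 −1.35, SE 0.21, edgeR adjusted p = 4.2e-06). The others named by size were Rpl26 (log2 −1.30, adjusted p = 0.0602 with the block), Rpl31 (−1.13), Rps29 (−1.05), Rpl36a (−0.98) and Rpl13 (−0.95). Among the remaining ones, at −0.90 to −0.50, were Rpl22, Rpl22l1, Rpl23, Rpl24, Rpl27a, Rpl28, Rps3a, Rps4x, Rps6, Rps26 and Rps27l. Both Rpl22 (log2 −0.90, SE 0.22, edgeR adjusted p = 0.000737) and its paralogue Rpl22l1 (log2 −0.84, SE 0.25, edgeR adjusted p = 0.00532) were lower in TAM Vehicle. Without TC Vehicle 54363 the number called was 12, and without TAM Vehicle 57682 it was 14. At Rebound 18 genes were higher in TAM without TC Rebound 49827, and 5 were called without TC Rebound 49041. At Endpoint 5 were called without the TC libraries with T and NK cell markers, 6 without TC Endpoint 49843, and 7 without TAM Endpoint 49823 or TAM Endpoint 49830.

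Whether a stage difference itself differed between TAM and TC was tested as the TAM fold change minus the TC fold change. Rpl15 passed for Endpoint against Vehicle (log2 0.84, SE 0.29, edgeR adjusted p = 0.0303; 25.7% of all genes called, 8.73% higher) and for Rebound against Vehicle (log2 1.26, SE 0.30, edgeR adjusted p = 0.0460; 0.517% of all genes called, 0.319% higher). Its own log2 fold changes were 0.31 in TAM and −0.64 in TC for Endpoint, and 0.35 in TAM and −0.98 in TC for Rebound, of which the TC Endpoint one passed. These come from the separate TAM and TC fits and the differences from the fit of all 32 libraries, so they need not add up. These 2 differences share the Vehicle libraries. With the mouse as a block the adjusted p values were 0.0622 and 0.200. Rpl39l passed for Rebound against Endpoint (log2 6.66, SE 2.21, edgeR adjusted p = 0.0335). Of all genes 20.6% were called, 13.4% higher and 7.18% lower. With the block the adjusted p of Rpl39l was 0.375, in a fit that leaves out TAM Rebound 49834, which held 84 of the 130 TAM Rebound counts. Rpl39l did not pass the filter in the TC fit, and its fitted value rests on a TC Rebound group at 0 counts. With library totals alone 1 gene was higher and 3 lower in this test. No other gene of the set passed in these 3 tests.

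Among the stalk proteins and those with known roles outside the ribosome, Rplp0, Rplp2, Rpsa, Rpl5, Rpl11 and Rps3 passed in no comparison. Rplp0, the base of the stalk that recruits the translation GTPases, averaged 826 ± 42.9 CPM in TAM Rebound, 874 ± 101 CPM in TAM Endpoint and 1149 ± 375 CPM in TAM Vehicle (SD, n = 5, 6 and 5). Its partner Rplp1 averaged 196 ± 93.6 CPM in TC Rebound, 397 ± 93.5 CPM in TC Endpoint and 418 ± 220 CPM in TC Vehicle, and fell in TC Rebound against TC Endpoint (log2 −1.003, SE 0.35, edgeR adjusted p = 0.0445). Rps3, which also takes part in DNA repair, averaged 856 ± 328 CPM in TC Rebound and 1503 ± 279 CPM in TC Endpoint (log2 −0.79, edgeR adjusted p = 0.0520). Rpl5 and Rpl11, which can bind Mdm2 and so act on p53, are among these. In TC Rebound against TC Endpoint their log2 fold changes were −0.01 and −0.68 (edgeR adjusted p = 0.988 and 0.103). Rps6, the substrate of the S6 kinases, was called once, lower in TAM Vehicle than in TC Vehicle (log2 −0.50, SE 0.20, edgeR adjusted p = 0.0381), and not with the block (adjusted p = 0.0524). Rpl38, needed in mouse embryos for the translation of Hox messages, averaged 48.8 ± 10.6 CPM in TAM Endpoint and 89.5 ± 11.2 CPM in TC Endpoint (log2 −0.87, SE 0.30, edgeR adjusted p = 0.0146).

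Other genes of ribosome production were counted beside the set. Rps19bp1 is in the set and also among the 48 ribosome biogenesis genes, where it is one of those that fell in TC Endpoint against TC Vehicle. Of 48 ribosome biogenesis genes, 15 fell and 0 rose in TAM Endpoint against TAM Vehicle (median log2 −0.45), where 19.3% of all genes were called lower. Nop2, a ribosomal RNA methyltransferase, fell with a log2 fold change of −2.02 (SE 0.27, edgeR adjusted p = 3.09e-05) and Bysl, a factor of small subunit assembly, with −1.80 (SE 0.35, edgeR adjusted p = 0.000743). In TC Endpoint against TC Vehicle 21 of 48 fell and 0 rose (median −0.68), where 14.8% of all genes were called lower, led by Polr1b, a subunit of RNA polymerase I, at −1.88 (SE 0.39, edgeR adjusted p = 0.00331). In TC Rebound against TC Endpoint 5 of 48 rose and 0 fell (median 0.36), where 13.6% of all genes were called higher, with Polr1b at 1.49 (SE 0.39, edgeR adjusted p = 0.0121), while the ribosomal protein genes had a median of −0.63. In TAM Rebound against TAM Endpoint 4 rose and 1 fell (median 0.18), where 11.7% of all genes were called higher and 5.9% lower.

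Of 24 listed regulators of ribosomal protein translation and supply, 23 were tested in TAM and 24 in TC. In TAM Endpoint against TAM Vehicle 2 rose and 6 fell, where 13.7% of all genes were called higher and 19.3% lower. In TC Endpoint against TC Vehicle 1 rose and 6 fell, where 14% were called higher and 14.8% lower. Myc, a transcription factor that drives ribosome production, averaged 5.77 CPM in TAM Endpoint and 137 CPM in TAM Vehicle (log2 −4.44, SE 0.55, edgeR adjusted p = 3.45e-05). Mycn averaged 0.205 CPM in TC Endpoint and 8.63 CPM in TC Vehicle (log2 −5.12, SE 0.94, edgeR adjusted p = 0.00159). In Rebound against Endpoint Myc rose in TAM (log2 3.39, SE 0.53, edgeR adjusted p = 0.000624) and Mycn in TC (log2 4.99, SE 0.93, edgeR adjusted p = 0.00209). The medians of the ribosomal protein genes there were −0.32 and −0.63. Myc averaged 62.8 ± 69.6 CPM in TAM Rebound (SD, n = 5). Of the regulators 1 rose and 2 fell in TAM, beside 11.7% and 5.9% of all genes. In TC 5 rose and 1 fell, beside 13.6% and 11.5%. Of 24 translation factors and other messages with a TOP tract, 4 rose and 4 fell in TAM Endpoint against TAM Vehicle (median −0.05), where 13.7% of all genes were called higher and 19.3% lower, with the elongation factor Eef2 at −0.75 (SE 0.18, edgeR adjusted p = 0.00385). In TC Endpoint against TC Vehicle 1 rose and 4 fell (median −0.31), where 14% of all genes were called higher and 14.8% lower. Of 76 mitochondrial ribosomal proteins, which serve a separate ribosome, 2 rose and 18 fell in TAM Endpoint against TAM Vehicle (median −0.27) and 0 rose and 8 fell in TC Endpoint against TC Vehicle (median −0.24), beside the same shares of all genes. Of the 6 rows marked -ps, 4 were tested and none passed in any comparison.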

How the data were processed

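RNA was measured in 32 libraries of sorted cells as a table of counts per gene that the authors deposited, with 23337 rows, none of which names no gene, and no columns of other series. STAR 2.3.0e, SAMtools and mm10 are named in the submitters' processing notes. A SMART-Seq kit and paired reads of 50 bases were used, per the labels' protocols. The counting program is not given in the sources used here. The members and gene lists were chosen with earlier results of these data known.

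Counts were tested with edgeR 4.0.16 (R 4.3.3; filterByExpr, TMM, robust quasi-likelihood), with Benjamini-Hochberg adjustment over all genes tested and a threshold of 0.05. Stages were compared within the 16 TAM or the 16 TC libraries, and populations in 1 fit of all 32 without a term for the mouse. The set had 84, 83 and 84 tested genes in these fits; Rpl10l and Rpl3l, and in TC also Rpl39l, did not pass the filter. Levels are CPM on the joint TMM scale, and SE belongs to the log2 fold change. Named genes were the called ones with the largest changes, up to 6 in each direction, the stalk proteins with Rpsa, those with known roles outside the ribosome and the paralogues with their parents; of other lists, up to 3 called genes.

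Totals were 4180176 to 30383148 counts a library. Intervals and floors cover counting error only. No 2 libraries of a group agreed within sampling noise (lowest chi-square per degree of freedom 19.7). TAM and TC libraries with the same number come from the same mouse, by the sample titles, and the correlations of their deviations from the group means were 0.000934 to 0.407 over 15 mice. The block was fitted for stages with limma 3.58.1 (voom, consensus correlation 0.135) in 1 fit of all 32 libraries, TAM and TC together. For populations it was fitted with edgeR on the 15 mice with both, without TAM Rebound 49834 and TC Rebound 49692. The effect of the block was not tested apart from these changes of program and libraries. DESeq2 1.42.0, other scalings, no filter, halved BLZ945 counts, added -ps counts, only the groups compared, and each library left out were the alternatives. Leaving out libraries with T and NK cell markers, and the Rpl39l bound without its richest library or with halved counts, were chosen after seeing the data. The tests were tried on simulated data with known changes.

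Coding words of 50 bases were compared across the GENCODE transcripts of GRCm38. Starts of transcription came from RefSeq (GRCm38.p6), 15 bases on either side. The motif searched was an unbroken run of C or T on the strand of the gene. Some genes of the set are counted in the totals but not reported here by name.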

Additional observations from a re-analysis of the deposited data

Results flagged for a closer look

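Each gene named in a test was looked at in each group for 1 library far from the others, by the gap to its nearest neighbour as a share of the group's range (Dixon's criterion). Chance gives about 1 in 20 in independent tests, but these tests share libraries and are not independent. Of the 192 tests 19 stood out.

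Of these, 10 were TC Rebound 49827, the library with T and NK cell markers at 3159 CPM. It was the highest of its group for Rpl13 (133.1 CPM), Rpl13a (1036 CPM), Rpl31 (14.37 CPM), Rpl37 (67.42 CPM), Rpl38 (86.83 CPM), Rplp1 (361.7 CPM), Rps21 (107.1 CPM), Rps24 (208.2 CPM), Rps25 (181.7 CPM) and Rps28 (48.6 CPM). TC Rebound 49827 also had the highest myelinating oligodendrocyte (15163 CPM), astrocyte (6287 CPM) and myeloid (3260 CPM) marker sums of its group. Its tumour cell marker sum (2235 CPM) was the lowest. The part of any of these cells was not tested.

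Rpl29 stood at 51.93 CPM in TAM Rebound 49849, above the rest of its group, and at 1.216 CPM in TAM Vehicle 57098, below the rest. Rps24 stood at 133.1 CPM in TAM Rebound 49827. Rpl39l stood at 3.441 CPM in TC Endpoint 49843, at 2.24 CPM in TAM Vehicle 54363 and at 0.04632 CPM in TC Vehicle 64247, the last of which is 1 count. Rpl15 stood at 111.6 CPM and was highest in TC Endpoint 49845, and Rps27a stood at 21.94 CPM in TC Endpoint 49843. Rpl27 was lowest in TC Rebound 49041, at 3.549 CPM.

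In 3 edgeR tests the stage difference in TAM was called as differing from that in TC. These were Rpl15 for Endpoint against Vehicle (log2 difference 0.84) and for Rebound against Vehicle (1.26), and Rpl39l for Rebound against Endpoint (6.66). None of these calls held in limma-voom or with the mouse as a block. Rpl39l did not pass the filter in the TC fit, and its value rests on a TC Rebound group at 0 counts.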

How the results depend on the processing

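Of the 81 calls, 77 kept their sign in every alternative and 14 also kept the call. Signs turned with library totals alone for Rpl36al (log2 −0.067) and Rpl10a (−0.0026) in TAM against TC at Rebound and for Rpl10 (−0.0871) in Vehicle, and for Rpl29 in TAM Rebound against TAM Endpoint (−0.995) without the 3 TAM Rebound libraries with T and NK cell markers. The cause was not tested. The numbers of genes called moved as follows. With library totals alone they were 37 (TAM Endpoint against Vehicle, 6 with TMM), 2 (TAM Rebound against Vehicle, 4), 40 (TAM Rebound against Endpoint, 3), 3 (TC Rebound against Endpoint, 10), 23, 40 and 77 (TAM against TC at Endpoint, Rebound and Vehicle; 12, 9 and 22), and 28 and 4 for the difference between populations in Endpoint against Vehicle and in Rebound against Endpoint (1 each). In TC Rebound against Endpoint they were 20 with DESeq2's size factors in edgeR, 6 without a filter, 25 with only those groups, 35 with DESeq2, 24 with limma-voom and 44 with the replicate block. In TC Rebound against Vehicle they were 12 with DESeq2 and 36 with the block. In TAM Rebound against Endpoint they were 22 with only those groups, 7 with DESeq2, 1 with limma-voom and 0 with the block. In TAM Rebound against Vehicle they were 2 with only those groups and 8 with DESeq2, and in TAM Endpoint against Vehicle 3 without a filter. For the differences between populations the number was 0 with limma-voom in all 3, and with the mouse as a block 0 for Endpoint and Rebound against Vehicle and 2 for Rebound against Endpoint. For Rebound against Vehicle it was 0 without a filter and 2 with DESeq2, and for Rebound against Endpoint 0 with halved counts. The block moved no other number of calls by over 1.5 times. These are totals, and the genes behind them changed. In TAM Endpoint against Vehicle the calls of Rpl29, Rpl27, Rps27l and Rpl22l1 were lost with the block. In TAM Rebound against Vehicle those of Rps15 and Rpl34 were lost. Without the 3 TAM Rebound libraries the numbers were 1, 0 and 5 for TAM Rebound against Vehicle, against Endpoint and against TC Rebound, and 0 for both differences with Rebound. Without the 5 TC libraries they were 1 for TC Endpoint against Vehicle, 1 for TC Rebound against Endpoint, 5 for TAM against TC at Endpoint, and 0 for the difference in Endpoint against Vehicle.

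Leaving out each library in turn gave 3 to 7 calls for TAM Endpoint against Vehicle, 2 to 16 for TAM Rebound against Vehicle, 0 to 4 for TAM Rebound against Endpoint, 6 to 13 for TC Endpoint against Vehicle, 0 to 18 for TC Rebound against Vehicle, 0 to 46 for TC Rebound against Endpoint, 6 to 13, 5 to 18 and 12 to 30 for TAM against TC at Endpoint, Rebound and Vehicle, and 0 to 5, 0 to 2 and 0 to 13 for the differences in Endpoint against Vehicle, Rebound against Vehicle and Rebound against Endpoint. The low end of TAM Endpoint against Vehicle was without TAM Vehicle 64247. Genes with few counts, such as Rpl30 with 705 and Rpl39l with 340 in all libraries, are limited by depth.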

Other observations

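Rpl29 was compared with all 15668 genes of the joint fit for the widest gap between neighbouring libraries on the log2 CPM scale, a comparison made after its values were seen. In 60 genes the widest gap left both libraries of each of the 15 mice on one side, and in 7 of these it was at least 1. That condition on mice was taken from the pattern seen in Rpl29, and among all 15668 genes the gap of Rpl29 had rank 33. Of the 60 genes, Rpl29 had the widest gap, at 3.47. The next genes were Kdm5d at 3.16, Ddx3y at 2.67, Eif2s3y at 2.44 and Uty at 2.44, which lie on the Y chromosome. Those 4 genes divided the libraries into 18 low and 14 high, and Rpl29 into 21 low and 11 high.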
